A study of Homo sapiens with 12 samples.

Results

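The COMMD family consists of 10 human genes, COMMD1 to COMMD10, whose proteins share a COMM domain at their C-terminal end. Every probe set that the platform annotation assigns to one of them was taken whatever its value, which gave 21 of the 54675 probe sets on the array, and the 10 genes stand among 19775 with a probe set of their own. Of these, 19 belong to 1 COMMD gene alone and 2 are assigned to COMMD5 together with ZNF250 and the pseudogene COMMD5P1. Only 1 probe set each measures COMMD1, COMMD3, COMMD8 and COMMD9, and the other 6 genes have several. The family itself was selected on the log2 changes of its probe sets in both knockdowns, which were already known. The changes below therefore describe the values behind that choice and are not independent evidence, and each adjusted p-value is the one the probe set received among all probe sets tested.

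The cells were A549, an established line from a human lung adenocarcinoma, and their RNA was measured on 12 arrays in 2 experiments. The first experiment set 3 FAM60A knockdown samples against 3 samples given a non-targeting siRNA, and the other set 3 SDS3 knockdown samples against a separate group of 3 non-targeting controls. All groups were the same line, transfected with 50 nM siRNA the day after plating and lysed 3 days after transfection, and none was left untransfected. FAM60A (current symbol SINHCAF) and SDS3 (SUDS3) are subunits of the SIN3 histone deacetylase complex, a corepressor that removes acetyl groups from histones. The treatment protocol names a FAM60A siRNA and a non-targeting siRNA and does not describe an SDS3 siRNA. The labels speak of plating in triplicate and do not say that replicates were separate cultures, so the p-values reflect no more than the scatter among these samples, and that scatter may be technical.

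COMMD proteins assemble into a ring that joins CCDC22, CCDC93 and the Retriever proteins in the Commander assembly, which returns membrane proteins from endosomes to the cell surface. The founding member, COMMD1, was found through copper toxicosis in dogs that lack it, and it also promotes ubiquitination of the NF-kappa B subunit RELA. The genes are expressed in most tissues, epithelial cells included.

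Upstream sequence of the COMMD genes is shown as a description, and its part in the changes was not tested. RefSeq's table of promoter windows for GRCh38.p14 held 14 windows for 9 of the 10 genes, each running from 250 bases before to 50 bases after a listed transcription start, and COMMD5 is named only. Searched on both strands, CACGTG, the E-box read by bHLH factors such as USF, MYC and MITF, lay in 5 of the 14 windows, against 7.23% of 34943 windows of that length. This motif was picked after the sequences had been seen. The 6 sites, in capitals within 30 bases of the gene's own strand, were these.
COMMD3: cgcggcgcgtgtCACGTGgtgtgcgtgtcg
COMMD4: gttagtccaagtCACGTGatcgtcgactca
COMMD8, before the start: gccggcgagagtCACGTGggcgagtcgtag
COMMD8, after the start: ggccagccttgaCACGTGacccaagcccca
COMMD9: aacagcgacagcCACGTGacctcgcttccc
COMMD10: gtgctgccgaatCACGTGgaacggtattcc
These stretches are chr10:22316368-22316397 on the plus strand for COMMD3, chr15:75336006-75336035 on the plus strand for COMMD4, chr4:47463707-47463736 and chr4:47463665-47463694 on the minus strand for COMMD8, chr11:36289443-36289472 on the minus strand for COMMD9 and chr5:116085420-116085449 on the plus strand for COMMD10. The first base of the site lay 8 bases before the start in COMMD3, 45 in COMMD4, 22 in the first COMMD8 site, 36 in COMMD9 and 30 in COMMD10, where it belongs to a start other than the gene's most upstream one. The match describes letters in a window and no factor's binding was measured.

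COMMD2, the gene with the largest change of the family, has no CACGTG in its window. It held the only COMMD match to CCGGAAGT, the ETS family's motif, which lay in 4.11% of all windows. The 250 bases before its start (chr3:149752490-149752739, minus strand) and before the start of COMMD8 (chr4:47463703-47463952, minus strand), the gene with the next largest change among the brightest probe sets, are given whole, with the ETS motif and the CACGTG in capitals.
COMMD2: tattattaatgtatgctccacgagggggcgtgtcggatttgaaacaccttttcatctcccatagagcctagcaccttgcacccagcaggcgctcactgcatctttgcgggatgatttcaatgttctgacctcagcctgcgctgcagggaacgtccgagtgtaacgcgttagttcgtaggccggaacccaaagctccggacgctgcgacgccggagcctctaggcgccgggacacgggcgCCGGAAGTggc
COMMD8: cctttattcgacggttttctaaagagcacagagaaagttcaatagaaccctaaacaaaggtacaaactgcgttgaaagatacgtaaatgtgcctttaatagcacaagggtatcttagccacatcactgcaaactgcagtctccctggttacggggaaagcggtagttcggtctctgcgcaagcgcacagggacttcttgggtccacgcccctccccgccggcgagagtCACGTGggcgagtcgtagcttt
AAGATGGC, the core of the YY1 motif, lay in windows of COMMD9 and COMMD10 and in 2.89% of all windows. The palindromic NRF1 motif was in none of the COMMD windows and in 1.23% of all. None of the COMMD matches overlapped a match to another motif.

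The targets were checked first. On the log2 scale, SINHCAF (220147_s_at) had 9.36, 9.12 and 9.43 in FAM60A knockdown samples, against 11.99, 11.97 and 12.01 in their controls, a change of -2.69 that left 15.5% of the control signal (SE 0.0814, adjusted p = 8.83e-08). SUDS3 (233841_s_at) had 8.48, 8.32 and 8.62 in SDS3 knockdown samples, against 10.11, 10.02 and 10.03 in their controls, a change of -1.58 that left 33.4% (SE 0.0813, adjusted p = 7.23e-06). A further probe set of SINHCAF had a change of -2.54 and one of SUDS3 a change of -1.43 in their own knockdowns, both called. After SDS3 knockdown SINHCAF rose on 220147_s_at (0.35, 127% of control, adjusted p = 0.00596) and was not called on 223038_s_at (0.06, adjusted p = 0.787). After FAM60A knockdown neither SUDS3 probe set was called (0.04 on 233841_s_at and -0.28 on 224974_at). The array medians lay between 186.01 and 192.56 intensity units in the FAM60A experiment and between 96.815 and 98.318 in the SDS3 experiment, and levels are set side by side within an experiment only. Spike-in control RNAs, added at fixed amounts, averaged 0.218 log2 higher on SDS3 knockdown arrays than on their controls (exact two-sided permutation p = 0.1, which is the lowest value possible with 3 arrays a group) and 0.0322 higher on FAM60A knockdown arrays (p = 0.7). Scaling to them lowers every SDS3 change by that amount and moves the median of all probe sets to -0.21, from 0.008 as deposited, so all changes given here are relative to the bulk of the probe sets. Scaling to the poly-A spike-ins alone lowers SDS3 changes by 0.323, which turns negative the smaller SDS3 rises of other genes named below (CCDC93, RELA, WWTR1 and DNMT3B). The hybridization spike-ins alone differed less between SDS3 knockdown and control arrays, by 0.0779 (exact permutation p = 0.3). In the FAM60A experiment the poly-A spike-ins differed by 0.101 and the hybridization spike-ins by -0.0592 (exact permutation p = 0.5 and 0.4). Probe sets of 18S ribosomal RNA were higher on knockdown arrays by 0.277 in the FAM60A and 0.527 in the SDS3 experiment (exact permutation p = 0.1 in each), and the 3' minus 5' signal of ACTB, a sign of RNA integrity, differed by -0.0943 in the FAM60A experiment (p = 0.1) and by -0.0132 in the SDS3 experiment (p = 0.7). Among epithelial and A549 markers, KRT8, KRT18, NQO1 and AKR1B10 had high signal, at 14.54, 15.05, 14.74 and 15.07 log2 in FAM60A controls. NKX2-1, SFTPB and SFTPC had 8.17, 8.57 and 8.76 there, near HBB of red cells (8.61) and PECAM1 of endothelium (8.44). PTPRC, which marks leukocytes, was under the filter, and the other 9 measured markers of non-epithelial cells passed it. The name of the cell line was therefore taken from the labels. Of 11 tested epithelial and A549 markers, 1 was higher and 2 were lower in FAM60A knockdown samples, with a summed signal of 16.89 to 16.96 log2 against 16.98 to 17.04 in controls. In SDS3 knockdown samples 8 were lower, with a summed signal of 16.38 to 16.43 against 16.75 to 16.82 in controls. Of all genes, 15.2% were lower and 17.4% higher after FAM60A knockdown, and 16.6% lower and 13.4% higher after SDS3 knockdown. The marker with the largest fall was EPCAM (-1.22) after FAM60A knockdown and CDH1 (-1.52, on 1 of its 2 probe sets) after SDS3 knockdown. Of 9 tested markers of fibroblasts, endothelium and blood cells, LUM alone was lower in each, and their summed signal was 10.92 to 11.06 in FAM60A knockdown samples against 11.03 to 11.09 in controls, and 10.10 to 10.17 in SDS3 knockdown samples against 10.15 to 10.21 in controls. After SDS3 knockdown the fall of LUM (-0.85) was on 1 of its 2 probe sets, and the other was not called (0.12). The part of these markers, of the ribosomal and ACTB signals and of the spike-ins in the COMMD changes was not tested. In a population of cells, fewer expressing cells and less RNA per cell cannot be told apart.

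Most COMMD genes had less signal after each knockdown, with 49.2% to 94.7% of the control signal after FAM60A knockdown and 66.2% to 102% after SDS3 knockdown over the 10 genes. Read from the brightest probe set of each gene, 6 of the 10 genes were lower after FAM60A knockdown (COMMD2, COMMD4, COMMD5, COMMD8, COMMD9 and COMMD10) and 8 after SDS3 knockdown (COMMD1, COMMD2, COMMD3, COMMD4, COMMD7, COMMD8, COMMD9 and COMMD10). None was higher in either. Among all 18621 genes, 15.2% were called lower and 17.4% higher after FAM60A knockdown, and 16.6% lower and 13.4% higher after SDS3 knockdown, but since these changes led to the choice of the family, nothing is read from the difference. The median change over the 10 genes was -0.29 log2 in FAM60A knockdown samples and -0.25 in SDS3 knockdown samples, where the medians of all genes were -0.023 and 0.006. COMMD2, COMMD4, COMMD8, COMMD9 and COMMD10 were lower in both, 5 of the 10, where 7.44% of all genes were lower in both.
Over all 19 probe sets of a single COMMD gene, 8 were lower, 0 higher and 11 not called after FAM60A knockdown. After SDS3 knockdown 9 were lower, 1 higher and 9 not called, and the 10 calls became 5 without SDS3 control replicate 2 and 6 without knockdown replicate 1. The shares of all 48286 probe sets called lower were 12.1% and 13.2%, and the shares called higher were 14.8% and 11%. All 3 knockdown arrays lay below all 3 controls for 11 of the 19 in the FAM60A experiment, against 20.7% of all probe sets, and for 9 in the SDS3 experiment, against 20.4%. They lay above all 3 controls for 0 of the 19 in the FAM60A experiment and for 3 in the SDS3 experiment. Of all 48286 probe sets, 9836 and 9169 lay above in these experiments. All 21 passed the filter on low signal, which counts the arrays of both experiments. The COMMD10 probe sets 235481_at and 242980_at passed it only through the FAM60A arrays, so their SDS3 results lie near the floor. The median SD between replicates over the 19 was 0.077 log2 in FAM60A knockdown samples and 0.0874 in their controls, and 0.0633 in SDS3 knockdown samples and 0.0533 in their controls. Of the 9 probe sets that are not their gene's brightest, 2 were lower after FAM60A knockdown, and 1 was lower and 1 higher after SDS3 knockdown.

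**Figure D1:**
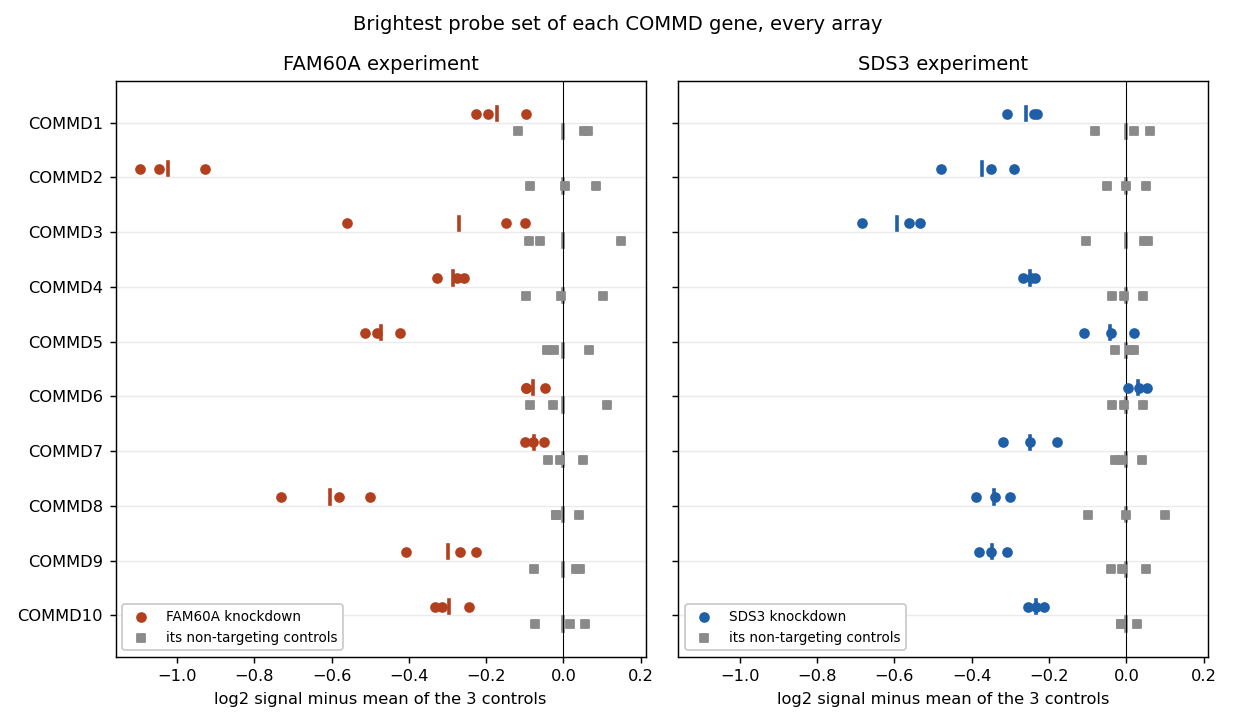
Signal of the brightest probe set of each COMMD gene on every array, on the log2 scale relative to the mean of that experiment's 3 controls, with circles for knockdown samples, squares for controls and short vertical lines for group means. COMMD2 stands farthest left after FAM60A knockdown, near -1.02, and COMMD5 lies left of its controls in the FAM60A experiment and overlaps them in the SDS3 experiment.

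COMMD1, COMMD6 and COMMD7 were among the members studied early as inhibitors of NF-kappa B. COMMD1 (226024_at) had 11.53, 11.63 and 11.50 in FAM60A knockdown samples, against 11.78, 11.79 and 11.61 in their controls, a change of -0.17 that did not pass the test (SE 0.0709, adjusted p = 0.108). After SDS3 knockdown it had 11.11, 11.18 and 11.19, against 11.48, 11.44 and 11.34 in controls, and fell to 83.5% (change -0.26, SE 0.0618, adjusted p = 0.0153). A single FAM60A knockdown array reached into the range of the controls, and all SDS3 knockdown arrays lay below theirs. The SDS3 call did not hold without control replicate 2 (-0.25, adjusted p = 0.0585) or without knockdown replicate 1 (-0.23, adjusted p = 0.0624), and the FAM60A change passed without control replicate 3 (-0.23, adjusted p = 0.0476).
COMMD6, the smallest member in humans, did not change by the test. Its brightest probe set (225312_at) had 13.03, 13.08 and 13.03 in FAM60A knockdown samples and 13.10, 13.24 and 13.04 in controls. It had 12.63, 12.65 and 12.60 in SDS3 knockdown samples and 12.56, 12.64 and 12.59 in controls. The arrays overlapped in both experiments, and the changes of -0.08 and 0.03 had adjusted p = 0.452 and 0.767, the SDS3 change turning to -0.189 when arrays were scaled to the spike-ins. A dimmer probe set (240030_at) had changes of 0.04 and 0.13, neither called.
COMMD7 (224815_at) had 12.64, 12.66 and 12.69 in FAM60A knockdown samples, against 12.73, 12.79 and 12.70 in controls (change -0.08, adjusted p = 0.373). It had 11.86, 11.79 and 11.93 in SDS3 knockdown samples, against 12.15, 12.10 and 12.08 in controls, and fell to 84.4% (change -0.24, SE 0.0603, adjusted p = 0.0182). The knockdown arrays lay below the controls in both experiments, and the SDS3 call was lost when either control replicate 1 or 2, or knockdown replicate 1 or 2, was left out (adjusted p between 0.0524 and 0.0658). The dimmer COMMD7 probe set (244178_at) went the other way in SDS3 knockdown samples, with 6.36, 6.44 and 6.37 against 6.19, 6.25 and 6.16 in controls (change 0.19, adjusted p = 0.0439). That call was lost on leaving out any single array, and the change was -0.028 under spike-in scaling, so the direction of this probe set depends on the scaling.

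COMMD3 and COMMD8 act as a pair that recruits a receptor kinase to chemokine receptors in mouse lymphocytes. COMMD3 (218048_at) had 11.25, 11.66 and 11.71 in FAM60A knockdown samples, against 11.72, 11.96 and 11.75 in controls. The knockdown arrays lay below the controls, with replicate 1 well under the other FAM60A knockdown samples, and the change of -0.27 did not pass (SE 0.118, adjusted p = 0.128). In SDS3 knockdown samples it had 10.85, 10.70 and 10.82, against 11.43, 11.44 and 11.28 in controls. It fell to 66.2% there (change -0.60, SE 0.0692, adjusted p = 0.000393), the largest SDS3 change of the family, and 2.73% of all probe sets had a lower change. Readthrough transcripts join COMMD3 to its neighbour BMI1. The probe set assigned to BMI1 and that readthrough (202265_at) fell less, by 0.22 in SDS3 knockdown samples (adjusted p = 0.0333), and its FAM60A change was -0.13 (adjusted p = 0.193).
COMMD8 (218351_at) had 11.62, 11.54 and 11.39 in FAM60A knockdown samples, against 12.10, 12.16 and 12.10 in controls. It averaged 11.52 ± 0.118 in FAM60A knockdown samples and 12.12 ± 0.0329 in controls (SD, n = 3 each), a fall to 65.8% (change -0.60, SE 0.0707, adjusted p = 0.000162). In SDS3 knockdown samples it had 10.87, 10.83 and 10.78, against 11.07, 11.17 and 11.27 in controls, a fall to 78.8% (change -0.34, SE 0.0678, adjusted p = 0.00639). No knockdown array reached its controls in either experiment.

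COMMD9 and COMMD10 are further ring subunits, COMMD9 being known for recycling of Notch receptors in mice. COMMD9 (218072_at) had 10.30, 10.44 and 10.48 in FAM60A knockdown samples, against 10.74, 10.75 and 10.63 in controls (81.1%, change -0.30, SE 0.0686, adjusted p = 0.00852). It had 9.43, 9.39 and 9.36 in SDS3 knockdown samples, against 9.70, 9.79 and 9.73 in controls (78.4%, change -0.35, SE 0.0563, adjusted p = 0.00219). Knockdown and control arrays did not overlap in either experiment, and the 2 changes differed by -0.05, which did not pass (adjusted p = 0.76).
The 2 bright probe sets of COMMD10 gave different accounts of the SDS3 knockdown. The brighter (218439_s_at) had 11.28, 11.26 and 11.35 in FAM60A knockdown samples, against 11.65, 11.61 and 11.52 in controls (81.3%, change -0.30, SE 0.062, adjusted p = 0.00513). It had 10.45, 10.43 and 10.47 in SDS3 knockdown samples, against 10.67, 10.67 and 10.71 in controls (85.1%, change -0.23, SE 0.0538, adjusted p = 0.0136), with no overlap in either. Without SDS3 control replicate 3 the SDS3 change had an adjusted p of 0.052.
The other (222637_at) had 10.45, 10.36 and 10.47 in FAM60A knockdown samples, against 10.84, 10.95 and 11.03 in controls, a larger fall (69.9%, change -0.52, SE 0.0683, adjusted p = 0.000341). Its SDS3 knockdown samples had 10.20, 10.23 and 10.08, which overlapped the 10.07, 10.26 and 10.34 of the controls (change -0.05, adjusted p = 0.71). A pair of dim COMMD10 probe sets, 235481_at and 242980_at, had changes between -0.25 and 0.16 in both experiments and none was called.

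COMMD2, COMMD4 and COMMD5 are less studied ring subunits, COMMD5 having first been described as a calcium-regulated gene in rats. COMMD2 (223491_at) had 9.59, 9.47 and 9.42 in FAM60A knockdown samples, against 10.60, 10.52 and 10.43 in controls. It averaged 9.49 ± 0.0887 in FAM60A knockdown samples and 10.52 ± 0.0874 in controls (SD, n = 3 each), a fall to 49.2% (change -1.02, SE 0.0712, adjusted p = 6.15e-06). This was the largest change of the family, and 0.352% of all probe sets had a lower one. In SDS3 knockdown samples it had 8.90, 8.71 and 8.84, against 9.14, 9.19 and 9.24 in controls, a fall to 77.2% (change -0.37, SE 0.068, adjusted p = 0.00426).
A further COMMD2 probe set of similar brightness (226910_at) did not follow it. Its values were 9.40, 9.62 and 9.62 in FAM60A knockdown samples, against 9.72, 9.66 and 9.64 in controls (change -0.13, adjusted p = 0.248). They were 9.30, 9.33 and 9.48 in SDS3 knockdown samples, against 9.20, 9.22 and 9.12 in controls (change 0.19, adjusted p = 0.0851), all above the controls, and the SDS3 change was -0.031 under spike-in scaling. The large fall of COMMD2 therefore rests on 1 of its 2 probe sets.
COMMD4 (206441_s_at) had 12.23, 12.16 and 12.21 in FAM60A knockdown samples, against 12.48, 12.59 and 12.39 in controls (81.9%, change -0.29, SE 0.0681, adjusted p = 0.0104). It had 11.67, 11.68 and 11.65 in SDS3 knockdown samples, against 11.88, 11.96 and 11.91 in controls (84.1%, change -0.25, SE 0.0551, adjusted p = 0.011). A bright probe set of the gene (209132_s_at) gave -0.23 in each experiment (adjusted p = 0.0193 and 0.0306), with no overlap, while the dim 209133_s_at overlapped in both and was not called. The SDS3 call of 206441_s_at was lost without control replicate 2 (-0.23, adjusted p = 0.0514), and the calls of 209132_s_at were lost without several single arrays of either experiment. Scaled to all spike-ins, 206441_s_at and 209132_s_at lost their FAM60A calls (adjusted p = 0.0527 and 0.147).
COMMD5 (224387_at) had 9.80, 9.86 and 9.77 in FAM60A knockdown samples, against 10.35, 10.26 and 10.24 in controls, a fall to 72.0% (change -0.47, SE 0.0608, adjusted p = 0.00028). It had 9.40, 9.27 and 9.34 in SDS3 knockdown samples, against 9.40, 9.35 and 9.39 in controls, which overlapped (97.3%, change -0.04, adjusted p = 0.697). The dimmer 232640_at was not called in either experiment (changes -0.05 and 0.04). The 2 probe sets shared with ZNF250 and COMMD5P1 cannot be given to a single gene. In FAM60A knockdown samples they had changes of -0.43 and -0.45 (adjusted p = 0.000885 and 0.000618), close to that of 224387_at. For SDS3 knockdown the same probe sets had -0.19 and -0.16 (adjusted p = 0.0615 and 0.0942), with all knockdown arrays below the controls. ZNF250's own probe set (213858_at) rose in both, by 0.44 in each (adjusted p = 0.00907 after FAM60A and 0.00098 after SDS3 knockdown).

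**Figure D2:**
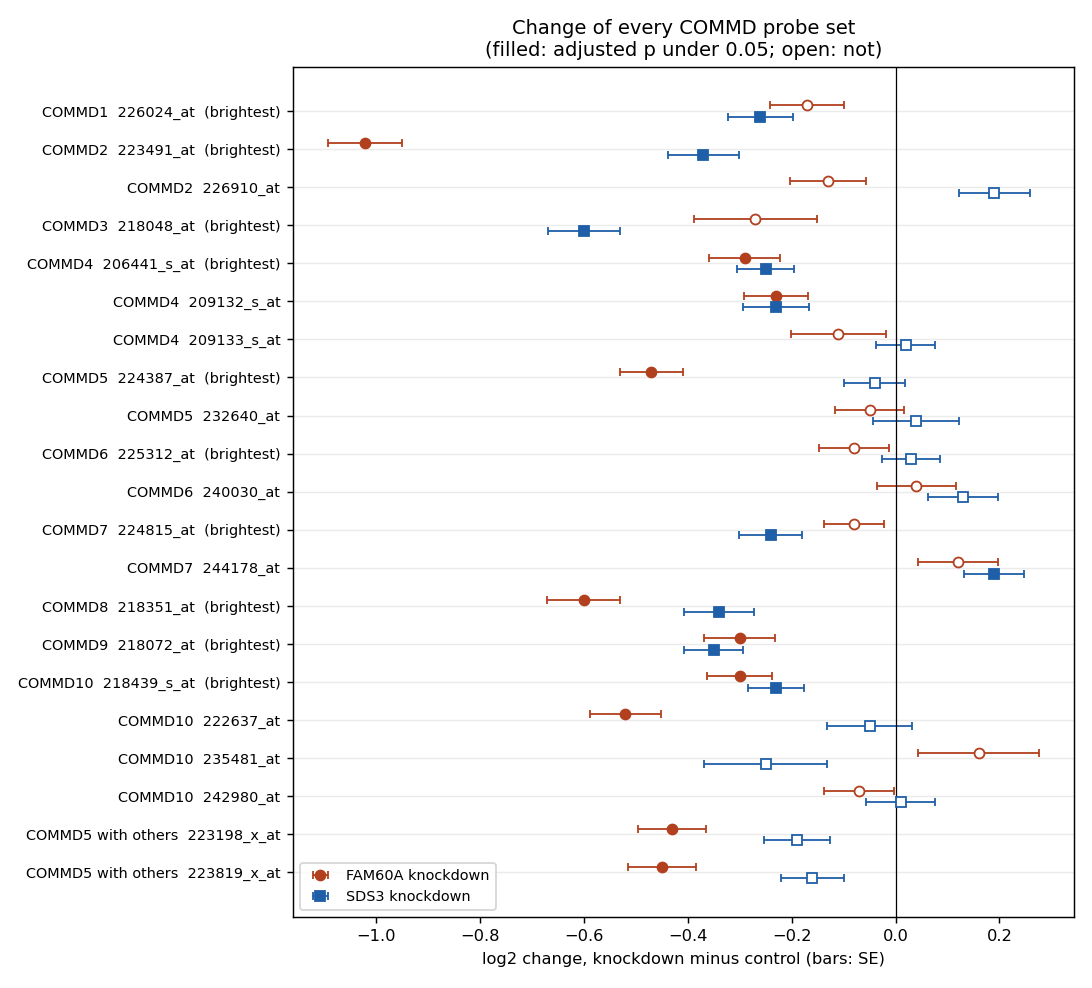
Log2 change, knockdown minus control, of all 21 COMMD probe sets with the standard error as bars, circles for FAM60A and squares for SDS3, filled where the adjusted p was under 0.05. Probe sets of 1 gene differ most for COMMD2, from -1.02 to -0.13 after FAM60A knockdown, and for COMMD10.

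**Figure D3:**
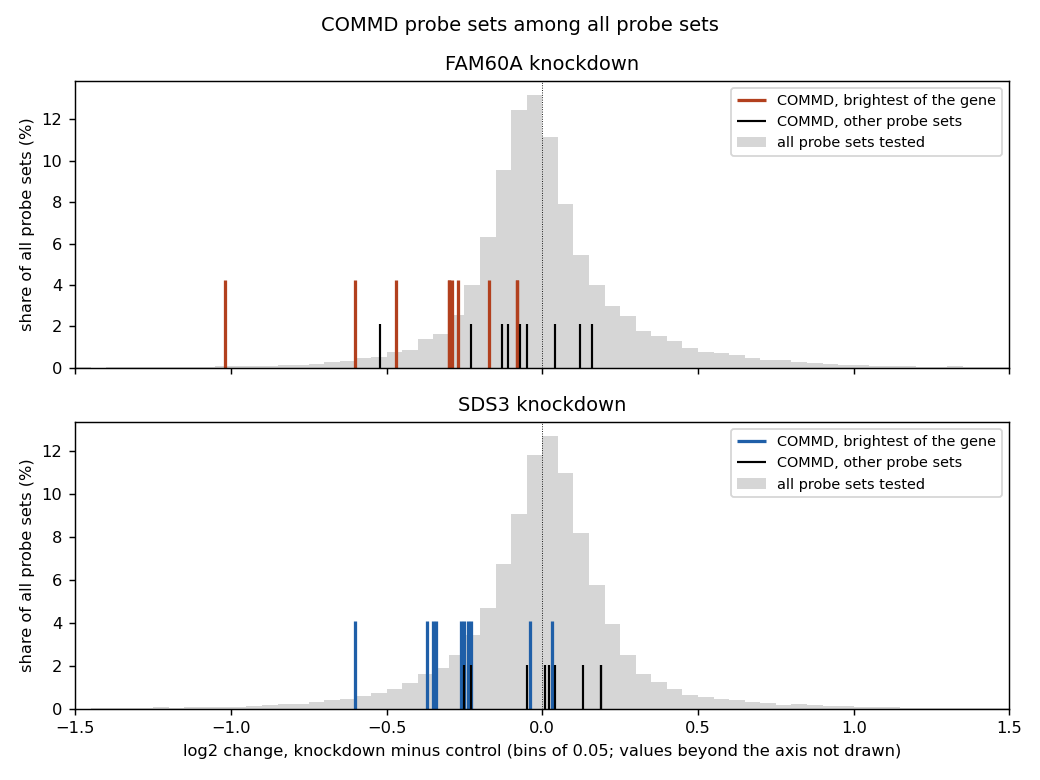
Share of all 48286 tested probe sets, in percent, by log2 change (bins of 0.05), with vertical lines at the COMMD probe sets, tall and coloured for the brightest of each gene and short and black for the others. The coloured lines lie left of 0 after FAM60A knockdown for all 10 genes and after SDS3 knockdown for 9.

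The 2 knockdowns were compared directly by subtracting the FAM60A change from the SDS3 change in a fit of all 12 arrays, which share no sample. The difference was positive and past the threshold for 4 of the 19 probe sets, meaning a smaller fall or none in SDS3 knockdown samples, and negative past it for 0, where 6.28% and 10.6% of all probe sets were. COMMD2 (223491_at) differed by 0.65 (SE 0.0993, adjusted p = 0.000486) and its other probe set (226910_at) by 0.31 (SE 0.102, adjusted p = 0.0499). COMMD5 (224387_at) differed by 0.44 (SE 0.0803, adjusted p = 0.00197) and COMMD10 (222637_at) by 0.46 (SE 0.109, adjusted p = 0.0094). COMMD8 had a difference of 0.26 that did not pass (adjusted p = 0.0905). COMMD3, which was called after SDS3 knockdown only, had a difference of -0.33 that did not pass either (SE 0.151, adjusted p = 0.164), and COMMD1 and COMMD7 had -0.09 and -0.17 (adjusted p = 0.573 and 0.177). For these 3 genes a call in 1 knockdown and not in the other was therefore not a shown difference. When arrays were scaled to the spike-ins, the COMMD2 difference was 0.465 (adjusted p = 0.0513), that of COMMD5 0.25 (0.383) and that of COMMD10 0.278 (0.316), so none of them stayed past the threshold. The knockdowns also left unlike shares of target signal, 15.5% for SINHCAF and 33.4% for SUDS3, and SINHCAF rose on 1 probe set after SDS3 knockdown. The part of these in the differences was not tested.

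**Figure D4:**
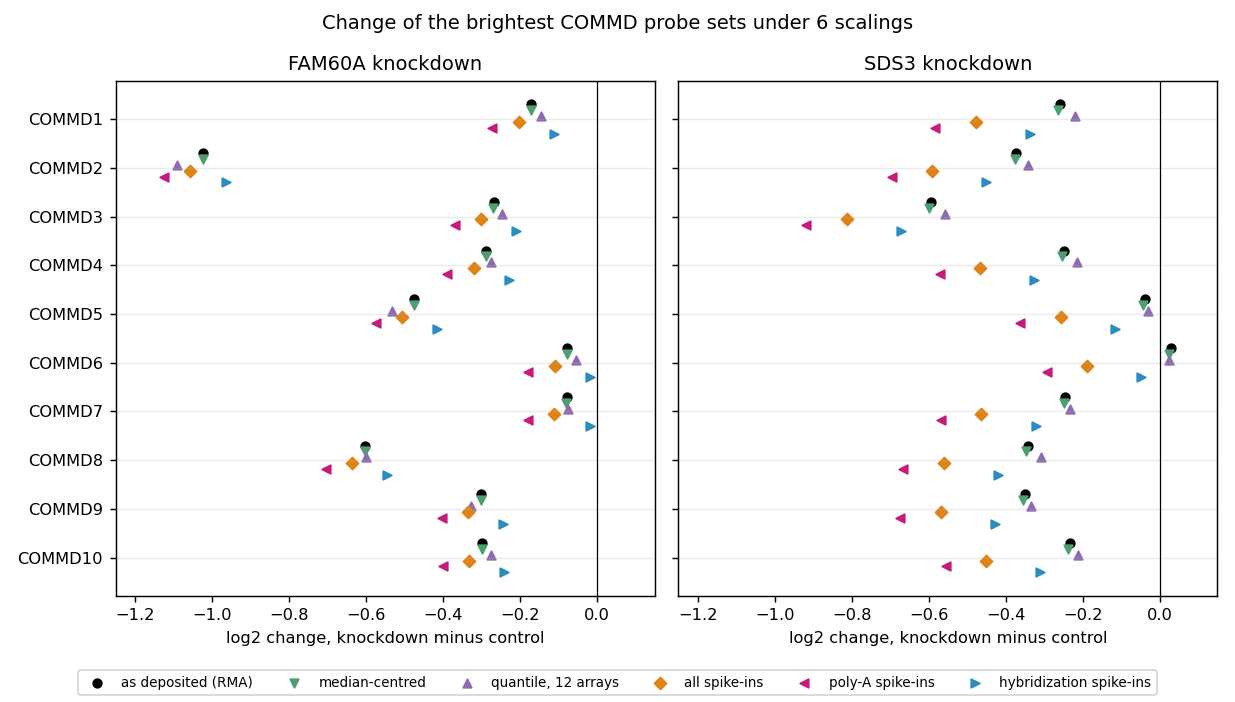
Log2 change of the brightest probe set of each COMMD gene under 6 scalings of the arrays, with 1 symbol for each scaling. Poly-A spike-in scaling moves SDS3 changes farthest left, and COMMD6 after SDS3 knockdown changes sign between scalings, from 0.03 as deposited to -0.189 with all spike-ins.

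The promoter letters were set beside the calls as counts. Of the 5 genes with CACGTG in a window, 4 were lower after FAM60A knockdown, 5 after SDS3 knockdown and 4 after both. Of the 4 genes with windows and no CACGTG (COMMD1, COMMD2, COMMD6 and COMMD7), 1 was lower after FAM60A knockdown, 3 after SDS3 knockdown and 1 after both. Of all genes, 15.2% were lower after FAM60A knockdown, 16.6% after SDS3 knockdown and 7.44% after both. With 9 genes this is a description, and COMMD2, with the largest change, is among those without the motif. COMMD5, lower after FAM60A knockdown, has no window and is in neither group. The motif was picked after the sequences had been seen, and the changes led to the choice of the family. Nothing is therefore read from the difference between the groups.

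Calls among the COMMD proteins' partners are given beside the shares of all genes called. Those were 17.4% higher and 15.2% lower after FAM60A knockdown, and 13.4% higher and 16.6% lower after SDS3 knockdown. The counts describe the lists, and no list was tested as a set. Of the 4 genes of the CCC complex's other subunits, 1 was higher and 1 lower after FAM60A knockdown, and 1 higher and 2 lower after SDS3 knockdown. DENND10 was called in neither. It averaged 4.77 log2 in SDS3 knockdown samples and 4.79 in controls, under the 5 used in the filter. CCDC22, which binds the COMMD ring, fell in FAM60A knockdown samples (-0.23, SE 0.0647, adjusted p = 0.0233) and in SDS3 knockdown samples (-0.50, SE 0.0643, adjusted p = 0.0007), and its other probe set fell with it in both. VPS35L, the Retriever scaffold, fell by 0.35 in SDS3 knockdown samples (adjusted p = 0.00552) and had 0.07 in FAM60A knockdown samples (adjusted p = 0.498). CCDC93, partner of CCDC22, rose by 0.25 and 0.24 on its brightest probe set (adjusted p = 0.0151 and 0.0163), while its 3 other probe sets were not called in either. Among 4 tested genes of Retriever and its cargo adaptors, VPS26C rose by 0.79 and 0.51 on 1 probe set and was not called on the other, and SNX17, the adaptor that hands integrins to Retriever, fell by 0.25 in SDS3 knockdown samples (adjusted p = 0.00953) and had a change of 0.05 in FAM60A knockdown samples.
Of 10 retromer and sorting nexin genes, 2 were higher and 3 lower after FAM60A knockdown, and 2 were higher and 4 lower after SDS3 knockdown. Of all genes, 17.4% were higher and 15.2% lower after FAM60A knockdown, and 13.4% higher and 16.6% lower after SDS3 knockdown. VPS26A, an arm of retromer, fell in FAM60A knockdown samples (-1.39) and in SDS3 knockdown samples (-0.40). SNX2 fell in FAM60A knockdown samples (-0.39) and in SDS3 knockdown samples (-1.13), on both its probe sets. SNX27 rose by 0.33 in FAM60A and 0.65 in SDS3 knockdown samples, and its other probe set was not called in either. SNX6 rose by 0.35 in SDS3 knockdown samples and was not called in FAM60A knockdown samples (0.18). Of 7 tested genes of the actin-nucleating WASH complex, 4 were lower after FAM60A knockdown and 2 after SDS3 knockdown, none higher, where 15.2% and 16.6% of all genes were lower. WASHC5 fell in both (-0.38 in FAM60A and -0.28 in SDS3 knockdown samples), as did WASHC2C (-0.20 in FAM60A and -0.38 in SDS3 knockdown samples).

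**Figure D5:**
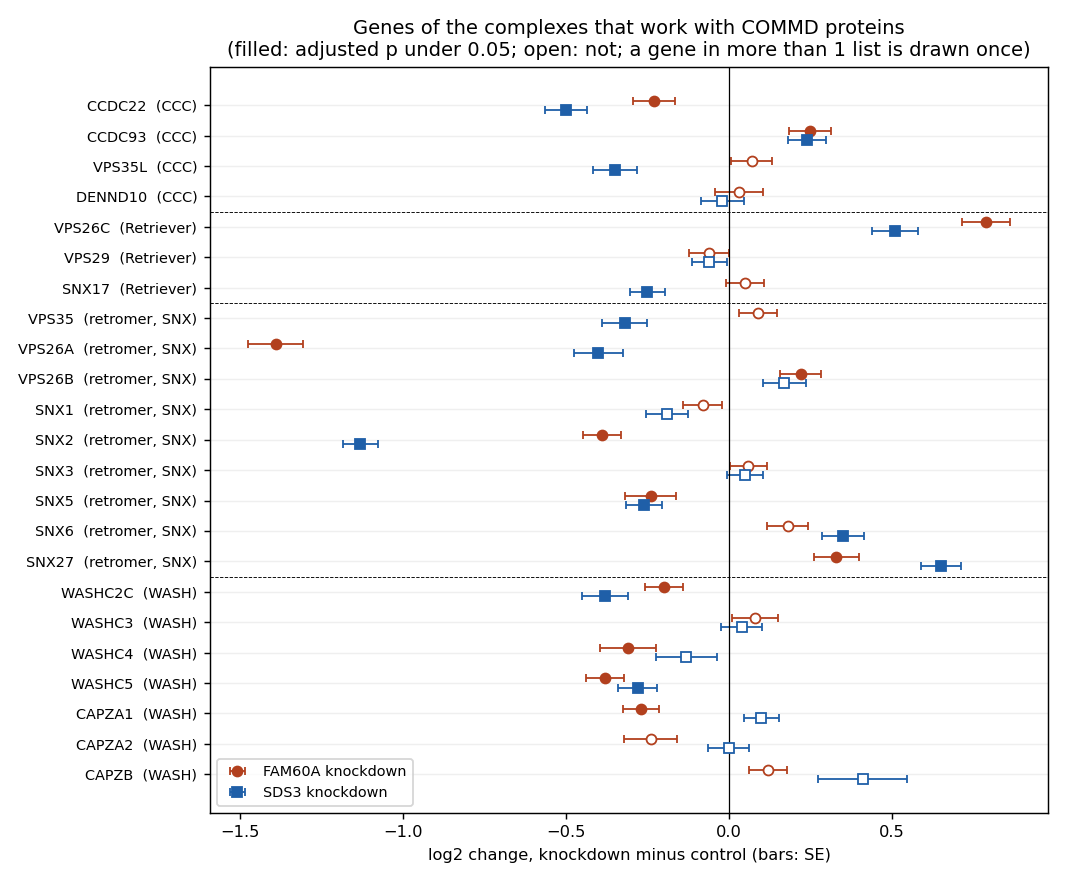
Log2 change, knockdown minus control, of the genes of the complexes that work with COMMD proteins, 1 probe set per gene, with the standard error as bars, circles for FAM60A and squares for SDS3, filled where the adjusted p was under 0.05. VPS26A (-1.39 after FAM60A knockdown) and SNX2 (-1.13 after SDS3 knockdown) lie farthest left and VPS26C (0.79) farthest right.

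Genes of the receptors, transporters and signalling proteins that COMMD proteins handle are counted beside the same shares. Of all genes, 17.4% were higher and 15.2% lower after FAM60A knockdown, and 13.4% higher and 16.6% lower after SDS3 knockdown. Of 8 tested receptors and transporters recycled with COMMD proteins, 2 were higher and 1 lower after FAM60A knockdown, and 1 was higher and 2 lower after SDS3 knockdown. The copper pump ATP7A fell by 0.65 in SDS3 knockdown samples (SE 0.145, adjusted p = 0.0112) and had 0.03 in FAM60A knockdown samples, while ATP7B rose by 0.64 and 0.42 on 1 of its 2 probe sets. The ion cotransporter SLC12A2 fell in both (-0.51 in FAM60A and -0.50 in SDS3 knockdown samples), and its other probe set was called after SDS3 knockdown alone. ITGA5 rose by 0.65 in FAM60A knockdown samples and was not called in SDS3 knockdown samples (-0.21). Of 16 copper-handling genes, 8 were higher in each knockdown, 1 was lower in FAM60A and 2 were lower in SDS3 knockdown samples, where 17.4% of all genes were higher after FAM60A and 13.4% after SDS3 knockdown. The 4 largest SDS3 rises of the list were those of MT1X, MT1H, MT1E and MT1F, metallothioneins that bind copper and zinc, with MT1X at 0.49 in FAM60A and 0.92 in SDS3 knockdown samples and MT1H at 0.51 and 0.90, and near-identical family members may share these probes. MT1M, also a metallothionein, was not called in either (-0.13 in FAM60A and 0.07 in SDS3 knockdown samples). Its signal was near or under the log2 of 5 used in the filter. It averaged 5.28 against 5.41 in controls in the FAM60A experiment, and 4.11 against 4.05 in the SDS3 experiment. COX17, also called in neither, averaged 4.67 in SDS3 knockdown samples and 4.78 in controls, again under 5. Of 11 NF-kappa B genes, 2 were higher and 2 lower in each knockdown: RELA rose by 0.23 in FAM60A and 0.27 in SDS3 knockdown samples, its other probe set not being called after SDS3 knockdown, and the kinase CHUK fell (-0.31 in FAM60A and -0.29 in SDS3 knockdown samples). The kinase IKBKB rose by 0.67 in FAM60A knockdown samples and RELB by 0.64 in SDS3 knockdown samples. Of 16 cullin-RING ligase genes and COMMD1 partners, 4 were higher and 2 lower after FAM60A knockdown and 3 higher and 2 lower after SDS3 knockdown, HIF1A rising by 0.45 and 0.33.

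Genes next to the COMMD genes on their chromosomes were taken from RefSeq's gene table as the nearest protein-coding gene on each side, 20 in all, of which 15 had a tested probe set of their own. After FAM60A knockdown 3 were lower and 3 higher, and after SDS3 knockdown 4 were lower and 3 higher, beside the shares of all genes given above (15.2% and 17.4% after FAM60A, 16.6% and 13.4% after SDS3 knockdown). CCT4, which overlaps COMMD1, was not called in either (changes -0.15 and -0.16, adjusted p = 0.0854 and 0.0698), and B3GNT2, on the other side of COMMD1, fell in SDS3 knockdown samples (-0.52). ZNF7, which overlaps COMMD5, fell in FAM60A knockdown samples (-0.19, adjusted p = 0.0367). ATP10D, beside COMMD8, and LDLRAD3, beside COMMD9, fell in SDS3 knockdown samples (-0.42 and -0.30). TBC1D4, beside COMMD6, and PRR5L, beside COMMD9, rose in FAM60A knockdown samples (0.45 and 0.27, adjusted p = 0.000607 and 0.0151). ZNF250, beside COMMD5, rose in both knockdowns (0.44 in each). UCHL3, beside COMMD6, fell in both (-0.28 in FAM60A and -0.24 in SDS3 knockdown samples), where COMMD6 was not called. DNMT3B, beside COMMD7, fell by 0.51 in FAM60A knockdown samples and rose by 0.23 in SDS3 knockdown samples. WWTR1, beside COMMD2, rose by 0.30 in SDS3 knockdown samples (adjusted p = 0.0097), and neither neighbour of COMMD2 or COMMD8 was called after FAM60A knockdown.

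The genes whose signal most resembled COMMD2 (223491_at) over the 12 arrays, after the mean of each experiment was taken off, were RTCA (Pearson r = 0.989), BCAT1 (0.988), ASNS (0.987), VRK1 (0.987) and POLB (0.986). These values describe arrays that share their groups. Because only the mean of each experiment was taken off, r includes the change between knockdown and control. Each of the 5 fell in both knockdowns, which follows from choosing them by likeness to a probe set that fell in both. Nothing is therefore read from their falls. The other COMMD2 probe set did not follow this profile. ASNS, asparagine synthetase, had -1.31 in FAM60A knockdown samples and -0.52 in SDS3 knockdown samples, and BCAT1, a branched-chain aminotransferase, had -0.84 and -0.26.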

How the data were processed

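Total RNA of 12 A549 samples, 1 ug each, was amplified with biotin and put on 1-colour Affymetrix arrays, per the labels. The deposited values are linear RMA intensity per probe set. The submitters' processing notes name RMA and give no version or grouping of arrays. RMA removes changes shared by most transcripts. The values had been taken for log2 when the design was written, proved linear, and were converted to log2.

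Groups came from the sample titles. Names came from the platform annotation (41097 probe sets with 1 symbol, 1801 with several, 11777 with none), of which 41043 were updated through the GRCh38.p14 gene table of RefSeq. After 62 control probe sets were left out, the 48286 with log2 of 5 or more on at least 3 of 12 arrays were tested by lmFit and eBayes in limma (version 3.58.1, R 4.3.3) on the 6 arrays of each experiment, with Benjamini-Hochberg adjustment over all of them and a threshold of 0.05. Every adjusted p is limma's, and every change is knockdown minus control. A gene was read from its brightest probe set over 12 arrays. Probe sets differ in affinity, so their levels were not set against each other, and the number of arrays limits precision. The steps were tested on simulated data. Alternatives varied the filter, scaling, variance model, weights, samples in the fit and replicate block. The members and all gene lists were chosen with earlier results of these data known. Besides the COMMD probe sets and both targets, named genes were up to 4 per list with the largest called change and the 5 genes most like COMMD2. Neighbours of COMMD genes that were called in either knockdown were named too, with CCT4 and the BMI1 probe set. KRT8, KRT18, NQO1 and PTPRC were also named. NKX2-1, SFTPB, SFTPC, HBB, PECAM1, MT1M, DENND10 and COX17 were added after their values were seen.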

Additional observations from a re-analysis of the deposited data

Results flagged for a closer look

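The SDS3 change differed from the FAM60A change, in a test of the difference itself, for 4 COMMD probe sets. In log2, the SDS3 change minus the FAM60A change was 0.65 for COMMD2 (223491_at), 0.31 for COMMD2 (226910_at), 0.44 for COMMD5 (224387_at) and 0.46 for COMMD10 (222637_at). The signal of 223491_at fell in both knockdowns, less so in SDS3. The signals of COMMD5 and COMMD10 (222637_at) were not called after SDS3 knockdown, except when arrays were scaled to the poly-A spike-ins, and fell after FAM60A knockdown. For 226910_at neither change was called (0.19 in SDS3 and -0.13 in FAM60A knockdown samples), and its difference passed barely (adjusted p = 0.0499). COMMD10's brightest probe set, 218439_s_at, had a difference of 0.07 that did not pass (adjusted p = 0.619).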

How the results depend on the processing

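Both targets stayed lower and past the threshold under every alternative run. Of 19 probe sets, 8 were called in the FAM60A knockdown and 4 when arrays were scaled to the hybridization spike-ins alone, where COMMD4 (206441_s_at and 209132_s_at), COMMD9 and COMMD10 (218439_s_at) were lost. With all spike-ins 6 were called, and those of COMMD4 were lost (adjusted p = 0.0527 for 206441_s_at and 0.147 for 209132_s_at). Scaling to the poly-A or to the hybridization spike-ins alone was added after the data were seen. In the SDS3 knockdown 10 were called and 4 at an adjusted p under 0.01. For the difference between knockdowns 4 were called, all positive, and 2, both positive, with only the brightest probe set of each gene. With all spike-ins 2 negative differences were called, and with poly-A spike-ins 1, so that no positive difference kept its call there. With hybridization spike-ins 2 were negative and 1, that of COMMD2 (223491_at), positive. Leaving out single arrays gave 7 to 9 calls for FAM60A, 5 to 8 for SDS3 and 3 to 5 for the difference. All FAM60A calls but that of COMMD4 (209132_s_at) held, and of the SDS3 calls those of COMMD2 (223491_at), COMMD3, COMMD8 and COMMD9, in all of these. The difference of COMMD2 (226910_at) was lost in 9 of 12. With poly-A spike-ins the SDS3 changes of COMMD5 (224387_at, -0.362, adjusted p = 0.0391) and COMMD10 (222637_at, -0.375, adjusted p = 0.033) became called. The cause was not tested.

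After group means were taken off, same-numbered knockdown and control samples did not deviate together (r between -0.138 and 0.0185). Differently numbered samples had r up to 0.154. With 3 arrays a group these values cannot exclude pairing, and the sample titles do not say whether the numbers pair samples. With the replicate number as a block, calls numbered 8 for FAM60A, 8 for SDS3 and 3 for the difference, and the targets changed by -2.69, -2.54, -1.43 and -1.58 as before.

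Signs turned for small changes, all uncalled but 1. SDS3 changes under all spike-ins, then poly-A spike-ins, became -0.031 and -0.136 for COMMD2 (226910_at), -0.196 and -0.302 for COMMD4 (209133_s_at), -0.182 and -0.288 for COMMD5 (232640_at), -0.189 and -0.294 for COMMD6 (225312_at), -0.087 and -0.192 for COMMD6 (240030_at), -0.205 and -0.31 for COMMD10 (242980_at) and, called as deposited, -0.028 and -0.133 for COMMD7 (244178_at). Under hybridization spike-ins they became -0.056 (209133_s_at), -0.042 (232640_at), -0.049 (225312_at) and -0.065 (242980_at), and the FAM60A change of 232640_at 0.005. The FAM60A change of 240030_at became -0.065 with poly-A spike-ins and -0.001 with array weights, and 242980_at in SDS3 -0.015 with array weights. Leaving out single arrays gave SDS3 changes from -0.004 to 0.05 (209133_s_at), -0.019 to 0.107 (232640_at), -0.129 to 0.006 (222637_at) and -0.042 to 0.062 (242980_at), and FAM60A changes from -0.029 to 0.08 (240030_at).

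The dimmest probe sets, 235481_at and 242980_at of COMMD10, had log2 means under 5 in SDS3 samples, near the filter, where RMA compresses changes. With 3 arrays a group, changes under about 0.2 log2 mostly missed the threshold.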
